A study of Saccharomyces cerevisiae with 36 samples.

Results

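Cells of budding yeast lacking Xrn1 were compared between the strain backgrounds SK1 and W303, across all annotated features. The comparison rests on 4 of the 36 samples of the series, chosen by their labels: 2 libraries of xrn1Δ cells in haploid SK1 (strain YAM2087) and 2 of xrn1Δ cells in W303 (strain YAM97). Beside them stand 2 libraries of wild-type haploid SK1 (YAM1977) and 2 of wild-type W303 (YAM92), which show whether a strain difference was there with Xrn1 too. Strand-specific paired-end RNA-seq was made from rRNA-depleted total RNA. The labels give each strain as a single isolate and name no mating type, marker alleles or culture conditions. They do not say whether the 2 libraries of a group came from separate cultures, so the spread between them may be technical. The p-values rest on the spread within groups, pooled over all rRNA-depleted libraries fitted. Those include diploid SK1, S288C and other groups, so the p-values do not measure the spread of the compared libraries alone. Diploid SK1 (YAM2068) and S288C (YAM6) cells, both lacking Xrn1, are cited where their levels help to read a locus.

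Xrn1 is the cytoplasmic exonuclease that degrades decapped RNA from its 5' end. Decapped mRNAs, products of nonsense-mediated decay (NMD, which degrades RNAs with a premature stop codon) and many antisense non-coding RNAs are its substrates. The comparison asks which strain differences remain when this decay route is missing in both backgrounds. SK1 is a strain used for its fast and synchronous sporulation, and W303 is a laboratory strain known for carrying defective alleles of several biosynthetic genes. Long non-coding RNAs (lncRNAs) are annotated in 3 classes. XUTs accumulate when Xrn1 is lost, CUTs are removed in the nucleus by the exosome, and SUTs are detected in wild-type cells.

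XRN1 itself (chr7:175527-180113, minus strand) was almost without reads where the labels give a deletion. Its density was 0.748 and 0.588 in wild-type SK1 and 0.887 and 0.975 in wild-type W303. It was 0.000515 and 0.000527 in xrn1 SK1 (7 and 8 reads) and 0.000197 and 0 in xrn1 W303 (1 and 0 reads). Density is reads per nucleotide, scaled in each library so that the summed snoRNA reads are equal. The xrn1 SK1 libraries held 53352278 and 59980410 reads on features and the xrn1 W303 libraries 22730104 and 21992670, so low levels are less precise in W303. Wild-type libraries held between 11021562 and 39283823 reads.

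Many RNAs differed between the strains without Xrn1. Differences are log2(density + 0.00576637) in SK1 minus that in W303, tested with limma. A feature is called higher or lower in SK1 at a Benjamini-Hochberg adjusted p under 0.05 and a difference of at least 2-fold. Of 9356 features tested, 595 were higher in SK1 (6.36%) and 1514 were lower (16.2%). The median of all features was -0.40. The median mRNA density was 0.785 and 0.784 in the SK1 libraries and 1.03 and 1.12 in the W303 libraries. With libraries set to equal mRNA medians, the median of all features was 0.04, and 913 features were higher (9.76%) and 813 lower (8.69%). The balance of higher and lower calls changed with the scale, and a difference near -0.40 on the deposited scale is that of the median feature.

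The difference was spread over RNA classes. Among 5689 mRNAs, 202 were higher (3.55%) and 536 lower (9.42%), or 357 (6.28%) and 239 (4.20%) with equal medians. These shares are the background for the xrn1 counts of every gene list below. Among 3386 lncRNAs, 357 were higher (10.5%) and 939 lower (27.7%), or 488 (14.4%) and 552 (16.3%) with equal medians. Among the lncRNAs, 249 XUTs, 53 CUTs and 55 SUTs were higher in SK1, and 525 XUTs, 170 CUTs and 244 SUTs were lower. XUTs were defined by their response to Xrn1 loss, not by strain. With equal medians the counts were 336 and 344 for XUTs, 73 and 73 for CUTs and 79 and 135 for SUTs. Of 188 tRNAs, 29 were higher and 33 lower (43 and 19 with equal medians), with a median of -0.02. Of 77 snoRNAs, on which the deposited scale is set, 6 were higher and 4 lower with a median of 0.23, or 23 and 1 with a median of 0.68 with equal medians. Median differences of mRNAs on the 16 nuclear chromosomes lay between -0.46 and -0.34.

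In wild type, 1045 of the same features were higher in SK1 (11.2%) and 577 lower (6.17%), or 1179 (12.6%) and 597 (6.38%) with equal medians. Among mRNAs the wild-type counts were 375 (6.59%) and 249 (4.38%), or 401 (7.05%) and 253 (4.45%) with equal medians. Among lncRNAs they were 632 (18.7%) and 299 (8.83%), or 733 (21.6%) and 317 (9.36%). The wild-type and xrn1 comparisons share no library. Of the features higher in xrn1 SK1, 425 were also higher in wild-type SK1, which is 71.4% of the xrn1 calls and 40.7% of the wild-type calls. Of those lower, 499 were shared, 33.0% of the xrn1 calls and 86.5% of the wild-type calls. The opposite call in wild type was found for 2 features higher and 16 lower in xrn1 SK1. These overlaps are on the deposited scale and were not counted with equal medians. On that scale the median of all features was -0.40 in xrn1 and 0.08 in wild type, which moves the shares. Across the 9356 features the strain differences had a Pearson r of 0.768 (Spearman rho 0.620), a description only, since features of one library share its scaling. Testing the change of the strain difference itself, the xrn1 difference exceeded that of wild type for 245 features (2.62%) and lay below it for 1844 (19.7%), with a median of -0.46. With equal medians these counts were 377 (4.03%) and 746 (7.97%). Among mRNAs this change was positive for 84 (1.48%) and negative for 682 (12%), or 171 (3.01%) and 210 (3.69%) with equal medians. Among lncRNAs it was positive for 149 (4.4%) and negative for 1142 (33.7%), or 179 (5.29%) and 526 (15.5%). Below, this quantity, the xrn1 difference minus the wild-type difference, is called the change with Xrn1 loss.

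**Figure D1:**
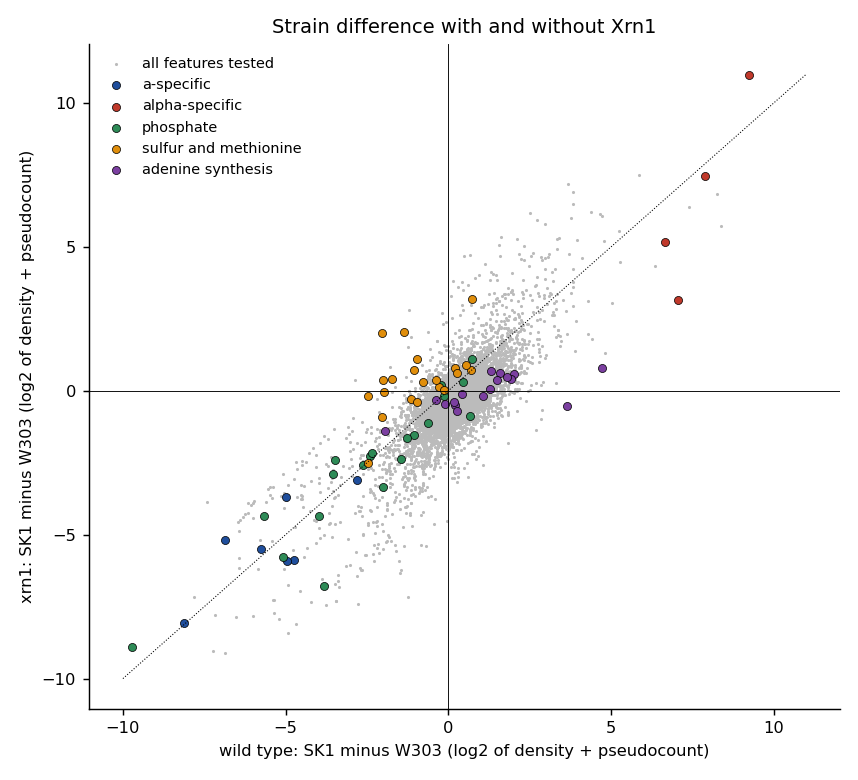
Strain difference (SK1 minus W303, log2 of density plus pseudocount) in wild type on the x axis and in xrn1 cells on the y axis, 1 point per feature tested (9356), with 5 gene lists coloured; the dotted line marks equal differences. Cell-type and phosphate genes lie far out along the line, adenine genes lie below it on the right, and sulfur genes lie above it on the left.

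Cell-type genes were among the mRNAs furthest apart. In budding yeast, a cells make a-factor and the receptor for alpha-factor, and alpha cells make alpha-factor and the receptor for a-factor. In alpha cells the repressor alpha2, with Mcm1, binds an operator upstream of a-specific genes. All 7 a-specific genes listed were lower in SK1 and all 4 alpha-specific genes were higher, in xrn1 and in wild type alike. The direction was the same with equal medians. Background and cell-type expression thus went together in these libraries. For other genes, the haploid SK1 and W303 libraries alone cannot tell a difference of background from one of cell type. S288C cells lacking Xrn1 resembled W303 in cell-type genes, with means of 26.8 for MFA2 (a-factor) and 0.00736 for MF(ALPHA)1 (alpha-factor). AIF1 averaged 1.28 in these S288C cells, 1.03 in xrn1 SK1 and 0 in xrn1 W303. YMR321C and YFR057W, both higher in SK1, averaged 0.0149 and 0.00514 in these S288C cells. Whether cell type plays a part in the difference of any other gene was not tested.

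The operator letters were read from the R64 genome upstream of the a-specific genes, 5' to 3' in the orientation of the match, to show which element these genes carry. The pattern of the alpha2-Mcm1 operator (CATGT, CC after 5 further letters and GG after 6 more) was searched on both strands in the 500 nt upstream of the coding start, and the matched letters are in capitals. It was found for 4 of the 7 a-specific genes and in 13 of 5775 upstream windows of all genes (0.225%). The 4 sites are those of MFA2 (chr14:352160-352195, plus strand), STE2 (chr6:82349-82384, minus strand), BAR1 (chr9:322075-322110, plus strand) and AGA2 (chr7:437099-437134, minus strand).
MFA2: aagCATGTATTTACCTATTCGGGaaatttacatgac
STE2: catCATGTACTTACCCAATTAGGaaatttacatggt
BAR1: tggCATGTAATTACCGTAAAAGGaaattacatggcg
AGA2: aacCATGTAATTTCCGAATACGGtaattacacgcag
BAR1 holds 2 matches in its window and the other 3 genes 1 each. A match describes R64 letters and does not say that the site is bound in these cells. The pheromone response element TGAAACA, searched the same way on both strands, was found for 6 of the 7 genes and in 549 of 5775 windows (9.51%).

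Among the a-specific genes, MFA2, which encodes a-factor (chr14:352414-352530, plus strand), had densities of 0.0836 and 0.0826 in xrn1 SK1 and 22.2 and 25.4 in xrn1 W303. The difference was -8.06 (SE 0.454, limma adjusted p = 2.9e-09). Separated libraries were a condition of naming MFA2 and are no further evidence. STE2, the alpha-factor receptor, stood at 0.369 and 0.395 against 13.2 and 14.7, a difference of -5.17. The SK1 libraries still held 1419 and 1694 STE2 reads. STE6, the a-factor exporter, was lower by a log2 difference of -3.69 and BAR1, the protease that degrades alpha-factor, by -5.49. AGA2, the a-agglutinin subunit, differed by -5.91, MFA1, the other a-factor gene, by -5.87 and ASG7 by -3.09. For STE2 and STE6 the change with Xrn1 loss was positive, 1.71 and 1.30. In wild type, STE2 stood at 0.0238 and 0.0222 in SK1 against 3.31 and 3.43 in W303.

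The alpha-specific genes went the other way. MF(ALPHA)1, the main alpha-factor gene (chr16:193648-194145, plus strand), had densities of 22.04 and 21.0 in xrn1 SK1 and 0.00908 and 0.00201 in xrn1 W303, where it had 5 and 1 reads. STE3, the a-factor receptor, stood at 5.38 and 5.48 against 0.0282 and 0.0219, a difference of 7.47 (SE 0.575, limma adjusted p = 1.0e-07). MF(ALPHA)2 had 201 and 262 reads in xrn1 SK1 and none in xrn1 W303, at least 25.7-fold higher against a floor of 3 reads per library. SAG1, the alpha-agglutinin, differed from the others in the W303 cells. It stood at 7.53 and 7.88 in xrn1 SK1 and at 0.841 and 0.891 in xrn1 W303, but at 0.0657 and 0.0525 in wild-type W303. In S288C, SAG1 likewise stood at 1.34 and 1.23 in xrn1 and at 0.102 and 0.0991 in wild type. Its strain difference was 3.14 in xrn1 against 7.07 in wild type, a change of -3.92 (limma adjusted p = 1.2e-06). AFB1, which encodes a secreted protein of alpha cells that binds a-factor, stood at 3.28 and 3.27 against 0.0616 and 0.0681.

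Genes of the mating-type cassettes also differed. HMRA1, the a1 gene at the silent locus HMR, had no read in any of the 4 haploid SK1 libraries and 741 and 636 reads in xrn1 W303, at least 681-fold lower in SK1 against the floor of 3 reads per library. HMLALPHA1 stood at 0.290 and 0.281 in xrn1 SK1 and at 0.0103 and 0.00947 in xrn1 W303. MATALPHA1 differed by 3.03. The cassettes share sequence with MAT, so reads cannot be assigned to one locus with certainty. MATALPHA2 differed by 0.06 in xrn1 cells and by 2.04 in wild type, a change of -1.98, with 0.552 and 0.547 in xrn1 SK1 against 0.519 and 0.539 in xrn1 W303.

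Among 14 genes active in haploid cells, 3 were higher in SK1 and 3 were lower, or 3 and 1 with equal medians. FUS1, needed for cell fusion, stood at 0.540 and 0.539 in xrn1 SK1 against 0.0476 and 0.0468 in xrn1 W303. Its difference of 3.36 exceeded that of wild type by 1.66. HO, the mating-type switching endonuclease, was lower in SK1, with 0.0715 and 0.0751 against 0.530 and 0.652. RME1, a repressor of meiosis, was lower by a log2 difference of -1.18 on the deposited scale, and not called with equal medians (-0.72).

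**Figure D2:**
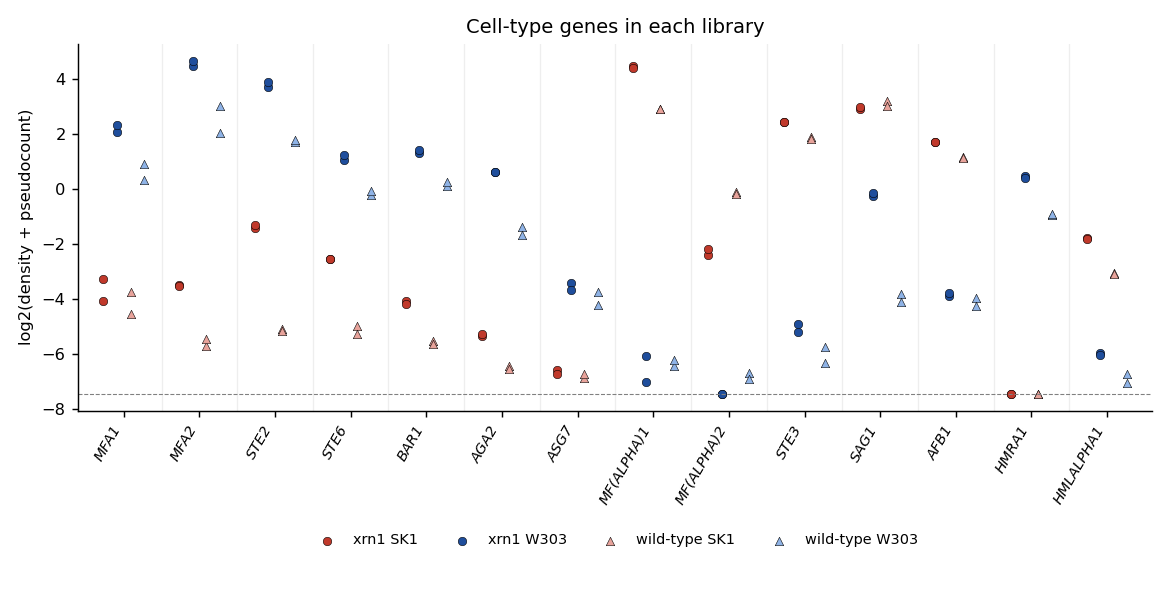
Level of 14 cell-type genes in each library, as log2(density + pseudocount), with 2 points per group (circles for xrn1, triangles for wild type, red for SK1, blue for W303); the dashed line marks a density of 0. The a-specific genes on the left are lower in the SK1 libraries and the alpha-specific genes, AFB1 and HMLALPHA1 are higher, with no overlap; HMRA1 is at 0 in SK1.

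When phosphate is short, the factor Pho4 enters the nucleus and activates genes for phosphate uptake, phosphatases and polyphosphate synthesis, most often through the letters CACGTG. Of 20 phosphate genes, 15 were lower in SK1 and 1 was higher in xrn1 cells, with a median of -2.32 against -0.40 for all features. With equal medians 14 were lower and 1 higher, and in wild type 14 were lower and none was higher.

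CACGTG was searched in the 500 nt upstream of each coding start; the motif equals its own reverse complement. It was found for 14 of the 20 phosphate genes, 12 of them among the 15 that were lower, and in 342 of 5775 upstream windows of all genes (5.92%). One site of each of 6 genes is shown, the genes whose values follow, read from R64 on the coding strand with the match in capitals: PHO84 (chr13:26221-26246, minus strand), SPL2 (chr8:375446-375471, minus strand), PHM6 (chr4:1022585-1022610, minus strand), PHO5 (chr2:431189-431214, minus strand), PHO89 (chr2:798830-798855, minus strand) and VTC3 (chr16:517348-517373, minus strand).
PHO84: ttaatagttcCACGTGgacgtgttat
SPL2: tatttttgctCACGTGaccgacaagg
PHM6: gcttcgctgaCACGTGggaggtggga
PHO5: ttggcactcaCACGTGggactagcac
PHO89: gacaatgcagCACGTGggagacaaat
VTC3: tgcgagggccCACGTGgcttaataca
SPL2 holds 4 matches in its window, PHO84 and VTC3 hold 2 each and the other 3 genes 1 each. A match describes the R64 letters and says nothing of the SK1 or W303 sequence.

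PHO84, the high-affinity phosphate transporter (chr13:24037-25800, minus strand), had the largest difference of the list. Its density was 0.0838 and 0.115 in xrn1 SK1 and 46.4 and 52.5 in xrn1 W303, a difference of -8.89 (SE 0.313, limma adjusted p = 1.2e-12). In wild type the values were 0.00676 and 0.00796 against 10.9995 and 11.2. Diploid SK1 cells lacking Xrn1 averaged 1.11 and S288C cells lacking Xrn1 35.8, so the S288C level was close to that of W303 and the diploid SK1 level lay between. The difference in xrn1 did not exceed that of wild type beyond error (0.84, limma adjusted p = 0.13).

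The other phosphate genes followed in order of size. PHM6, of unknown function, stood at 0.0129 and 0.0249 in SK1 against 2.51 and 2.73, and its difference of -6.78 was 2.94 below that of wild type. SPL2, a regulator that restrains low-affinity phosphate uptake, stood at 0.0785 and 0.0851 against 4.49 and 4.99. The acid phosphatases PHO5 and PHO12 differed by -4.33 and -4.34. PHO89, a sodium and phosphate cotransporter, differed by -3.35, and VTC3, a subunit of the vacuolar polyphosphate synthase, by -2.90. PHO90, a low-affinity phosphate transporter, was the gene that was higher in SK1: it stood at 2.87 and 2.92 against 1.28 and 1.44, a difference of 1.09.

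**Figure D3:**
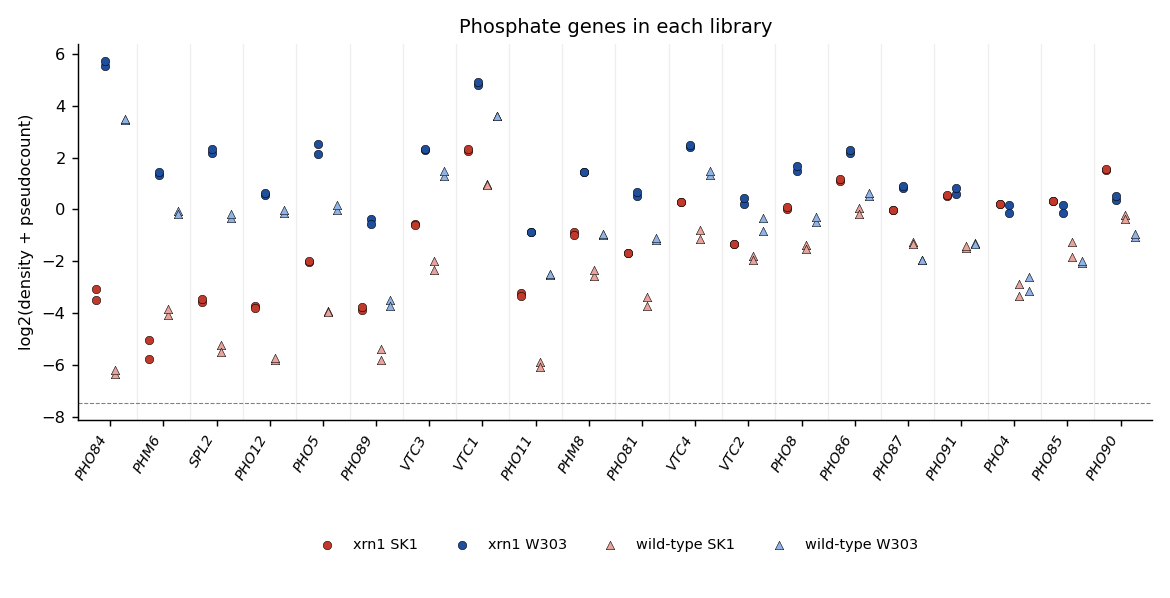
Level of the 20 phosphate genes in each library, as log2(density + pseudocount), ordered by the xrn1 strain difference, with 2 points per group (circles for xrn1, triangles for wild type, red for SK1, blue for W303). The W303 points lie above the SK1 points for the genes on the left, and PHO90 on the far right shows the reverse.

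A further group of genes had almost no reads in one background. Among all genes, 100 had under 10 reads in each of the 8 SK1 libraries of either ploidy, and 25 of these had at least 10 reads in both xrn1 W303 libraries. Of those 25, 23 also reached 10 reads in both S288C libraries lacking Xrn1, and 16 lay within 30 kb of a chromosome end. In the other direction, 141 genes had under 10 reads in each of the 4 W303 libraries and 45 of these had at least 10 reads in both xrn1 SK1 libraries. Of those 45, 29 also reached 10 reads in S288C and 16 lay near an end. The W303 libraries held fewer reads, so a density that reaches 10 reads in SK1 can miss it in W303. The counts of 25 and 45 are therefore not comparable. Some of the 45 were not called higher in SK1, and some stood at a higher density in xrn1 W303 than in xrn1 SK1. Gene positions equal those of R64, an S288C genome, for 5757 of 5789 matched genes. A locus that a strain lacks, a sequence too different to align and an unexpressed gene cannot be told apart in these counts.

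Genes with almost no reads in SK1 were partly neighbours. The 4 ASP3 genes for cell-wall asparaginase on chromosome 12 are near-identical copies, so their reads cannot be assigned to one copy. ASP3-4 (chr12:486201-487289, minus strand) had 2 and 0 reads in xrn1 SK1 and 3831 and 3559 in xrn1 W303, densities of 0.000620 and 0 against 3.18 and 3.27. ASP3-2 had 1 and 0 reads against 1017 and 1057, and ASP3-3 none against 0.898 and 0.871 in density. At the right end of chromosome 16, SGE1, a multidrug exporter (chr16:934034-935665, plus strand), had 1 read in each xrn1 SK1 library and 2329 and 2258 in W303. Its neighbours ARR1, ARR2 and ARR3, the regulator, reductase and exporter of the arsenic resistance cluster, had 1 read between them in the xrn1 SK1 libraries. ARR1 had 1390 and 1310 reads in xrn1 W303.

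Near the left end of chromosome 15, BDS1, a sulfatase (chr15:6175-8115, plus strand), had 1 and 0 reads in xrn1 SK1 against 2161 and 1932. In the same region YOL159C-A had 0 and 1 reads against 500 and 497, and its neighbour CSS3, at 68 and 76 reads, was lower in SK1 by a log2 difference of -5.24. MAL11, a maltose transporter (chr7:1073963-1075813, minus strand), had no read in either xrn1 SK1 library and 1870 and 1961 in xrn1 W303, at least 1904-fold lower in SK1 against the floor of 3 reads per library. YER138W-A had 4 and 7 reads against 355 and 345. In S288C cells lacking Xrn1, ASP3-4 averaged 1.64, SGE1 1.17, BDS1 0.817 and MAL11 0.759.

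Other genes had almost no reads in W303. AIF1, a cell death effector of the mitochondria (chr14:777602-778738, minus strand), had 3447 and 3870 reads in xrn1 SK1 and none in any W303 library, at least 408-fold higher in SK1. YMR321C had 765 and 908 reads against 1 and 2, YFR057W 1040 and 1220 against 2 and 1, and YBR013C 468 and 461 against none, at least 52.0-fold higher. LSO1, which responds to iron limitation, had 156 and 171 reads against 1 and 0. AIF1 averaged 1.28 and YBR013C 0.573 in S288C lacking Xrn1, whereas YFR057W averaged 0.00514 and YMR321C 0.0149 there.

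Position on the chromosome went with these differences. Within 30 kb of a chromosome end, 34 of 330 mRNAs were higher in SK1 (10.3%) and 107 lower (32.4%), whereas farther in 167 of 5336 were higher (3.13%) and 426 lower (7.98%). For lncRNAs near ends, 56 of 320 were higher (17.5%) and 136 lower (42.5%), against 299 (9.77%) and 802 (26.2%) of 3060 farther in. In wild type, 44 of the 330 mRNAs near ends were higher (13.3%) and 73 lower (22.1%), against 329 (6.17%) and 174 (3.26%) farther in. These position counts are on the deposited scale and were not made with equal medians. Members of the COS, PAU and YRF1 families, which lie near chromosome ends, gave 2 higher and 22 lower of 35 tested, or 1 and 19 with equal medians. COS3 stood at 0.0255 and 0.0294 in SK1 against 0.407 and 0.451, and YRF1-1, a helicase encoded in Y' elements, differed by -2.98. These families hold near-identical copies, so single members are uncertain.

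Of 7 sodium and metal efflux genes tested, 6 were lower in SK1, the 3 ARR genes and 3 ENA genes. ENA1, the main sodium ATPase, stood at 0.0814 and 0.0825 in SK1 against 1.03 and 0.985. ENA2 differed by -4.05 and ENA5 by -3.76. The ENA genes are tandem near-copies on chromosome 4, so their reads cannot be fully separated. In wild type 6 of the 7 were lower as well.

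Of the other mRNAs furthest apart, ADH2, the glucose-repressed alcohol dehydrogenase that consumes ethanol (chr13:873291-874337, minus strand), was higher in SK1. Its density was 4.68 and 5.23 against 0.0440 and 0.0315, a difference of 6.84 (SE 0.233, limma adjusted p = 5.1e-15). RCK1, a protein kinase of the oxidative stress response, stood at 2.12 and 2.02 against 0.0217 and 0.0240, and its difference of 6.18 exceeded that of wild type by 3.66. YAL065C, a FLO-like gene fragment, stood at 14.3 and 14.2 against 0.0561 and 0.0930, and YFL051C, also related to flocculins, differed by 5.99.

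On the other side, YHB1, the flavohaemoglobin that detoxifies nitric oxide (chr7:959904-961103, plus strand), was lower in SK1. It stood at 0.328 and 0.318 in xrn1 SK1 against 23.2 and 24.3, a difference of -6.17 (SE 0.147, limma adjusted p = 4.6e-21), and at 0.146 and 0.117 against 11.3 and 12.5 in wild type. SRD1, an rRNA processing gene, differed by -6.20. YEL073C (chr5:7230-7553, minus strand) had 3 and 2 reads in xrn1 SK1 and 427 and 374 in xrn1 W303. In wild type it stood at 0.0120 and 0.0134 in SK1 against 0.0430 and 0.0325 in W303. RMD6 stood at 0.0204 and 0.0174 against 1.52 and 1.45 in xrn1, with a change with Xrn1 loss of -4.40.

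Of 22 flocculins and cell-wall genes tested, 10 were higher and 2 lower (11 and 0 with equal medians), with a median of 0.55 against -0.40 for all features. FLO11, the flocculin of invasive and filamentous growth (chr9:389572-393675, minus strand), stood at 2.89 and 2.84 in xrn1 SK1 against 0.0449 and 0.0531, a difference of 5.71 (SE 0.197, limma adjusted p = 6.2e-18). In wild type it stood at 3.00 and 3.59 against 0.00386 and 0.00444, so that the difference of 8.37 was larger there by 2.66. FLO9 differed by 4.48, FLO10 by 4.33 and FLO1 by 3.28, all flocculins with repeated sequences in common. Of the agglutinin and anaerobic wall genes, AGA1 differed by 3.16 and TIR1 by 3.41.

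The FLO11 promoter carries 2 non-coding RNAs with known roles in S288C-related strains, ICR1 on the FLO11 strand, which acts against FLO11, and PWR1 on the opposite strand, which acts against ICR1. PWR1 stood at 0.0775 and 0.0735 in xrn1 SK1 against 0.00288 and 0.00425 in xrn1 W303 (216 and 229 reads against 3 and 4). ICR1 stood at 1.11 and 1.10 against 0.808 and 0.909, a difference of 0.37 that was below 2-fold. Separated libraries were a condition of naming FLO11, and PWR1 and ICR1 were chosen after their values were seen. The ICR1 libraries of the strains did not overlap but lay close. In wild type ICR1 lay between 0.0648 and 0.0989 in all 4 libraries.

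Some strain differences of wild type were not called without Xrn1. W303 is known for nonsense or frameshift alleles of ADE2, TRP1, HIS3 and LEU2, although the labels name none. Whether such alleles play a part in the values of these genes, or of the adenine genes that follow, was not tested. ADE2, the adenine synthesis gene (chr15:564476-566191, minus strand), stood in wild type at 1.34 in both SK1 libraries and at 0.101 in both W303 libraries. In xrn1 cells it stood at 2.50 in both SK1 libraries and at 3.44 and 3.71 in W303, so the order turned. The strain difference was 3.66 in wild type and -0.51 in xrn1, a change of -4.17 (SE 0.236, limma adjusted p = 4.1e-12).

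HIS3 and TRP1 moved in the same way. HIS3 stood at 0.521 and 0.517 against 0.143 and 0.142 in wild type, and at 1.91 and 1.95 against 3.14 and 3.57 in xrn1, a change of -2.62. TRP1 stood at 0.435 and 0.387 against 0.0684 and 0.0739 in wild type, and at 0.993 and 0.957 against 0.963 and 1.00 in xrn1, a change of -2.45. LEU2 changed by -0.92, below 2-fold. Of the 10 genes listed for W303 alleles, 4 were higher in wild-type SK1, none was called in xrn1, and 3 had a negative change with Xrn1 loss, also with equal medians. In xrn1, HIS3 and ADE2 passed the threshold on p but not 2-fold, with limma adjusted p of 9.6e-06 and 0.0096.

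Other adenine genes changed in the same direction. Of 17 genes of adenine synthesis and its branches, 10 were higher in wild-type SK1 and 1 lower, while in xrn1 none was higher and 1 was lower (4 and 0 with equal medians). The change was negative for 8 on the deposited scale and for 4 with equal medians. ADE17, an enzyme of the last steps to inosine monophosphate, stood at 3.05 and 3.13 against 0.110 and 0.115 in wild type and at 5.74 and 5.83 against 3.12 and 3.61 in xrn1, a change of -3.93. ADE12 changed by -1.35, which was not called with equal medians (-0.92). HIS4, at 2.73 and 2.72 against 6.83 and 7.60, was the member that was lower in xrn1 SK1, and it was not called with equal medians.

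**Figure D4:**
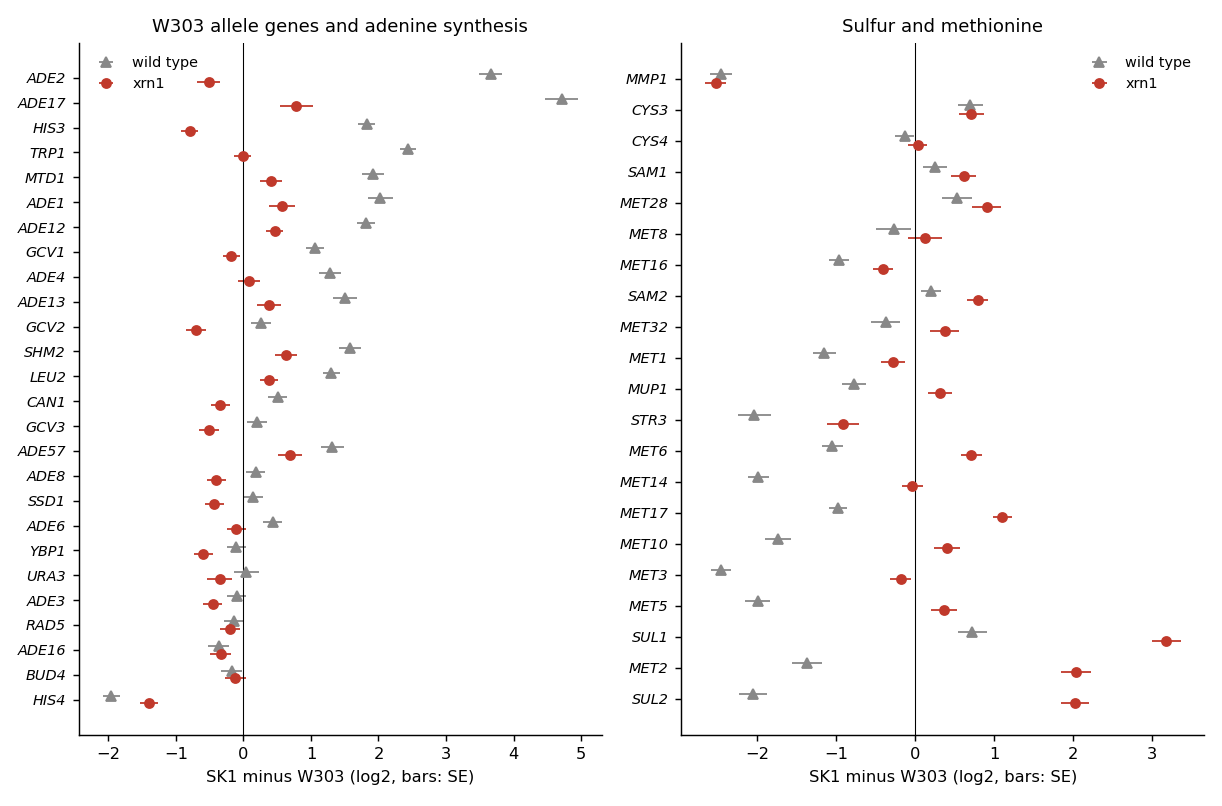
Strain difference (SK1 minus W303, log2) of single genes in wild type (grey triangles) and in xrn1 cells (red circles), with bars of 1 standard error from limma, for W303 allele and adenine genes on the left and sulfur genes on the right. ADE2, ADE17, HIS3 and TRP1 lie to the right in wild type and closer to 0 in xrn1, and SUL2 and MET2 lie on opposite sides of 0.

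Genes of respiration and of the mitochondrial ribosome gave more calls in wild type. Of 34 nuclear genes of oxidative phosphorylation, 22 were higher in wild-type SK1 (median 1.14), against 1 in xrn1 SK1 (median 0.15), or 8 with equal medians; the change was negative for 10, or for 2 with equal medians. CYT1, cytochrome c1, was the one called, at 10.5 in both SK1 libraries against 4.44 and 5.52 (difference 1.08). COX5A, a subunit of cytochrome c oxidase, differed by 0.76. Of 43 mitochondrial ribosomal proteins, 5 were higher in wild-type SK1, while in xrn1 SK1 none was higher and 1, MRPS17, was lower (0 with equal medians). Their change with Xrn1 loss was negative for 31 of 43, or for 11 with equal medians, with MRPS17 at -1.66 and MRPL27 at -1.33. Of 17 genes of the citrate and glyoxylate cycles, 5 were higher in xrn1 SK1 and none was lower (7 and 0 with equal medians). MDH2, the cytosolic malate dehydrogenase, stood at 10.3 and 10.9 against 1.81 and 2.03, IDH2, an isocitrate dehydrogenase subunit, differed by 1.43 and MLS1, a malate synthase, by 1.43.

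Of 21 genes of sulfur assimilation and methionine synthesis, none was higher and 10 were lower in wild-type SK1, while 4 were higher and 1 lower in xrn1 SK1 (9 and 1 with equal medians). The change was positive for 11, and for 15 with equal medians, and negative for none. SUL1 and SUL2 are the sulfate transporters. SUL2 stood at 0.0299 and 0.0317 against 0.132 and 0.161 in wild type and at 0.419 and 0.438 against 0.0873 and 0.117 in xrn1, a change of 4.08 (SE 0.255, limma adjusted p = 2.0e-11). SUL1 stood at 0.370 and 0.393 against 0.0389 and 0.0349 in xrn1.

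Within the same pathway, MET2, homoserine acetyltransferase, changed by 3.41, from 0.119 and 0.0670 against 0.226 and 0.256 in wild type to 1.58 and 1.54 against 0.353 and 0.401 in xrn1. MET3, ATP sulfurylase, had a wild-type difference of -2.46 and an xrn1 difference of -0.18. MET17, the sulfhydrylase that fixes sulfide, was higher in xrn1 SK1 by 1.11. MMP1, a transporter of S-methylmethionine, was lower in SK1 in both genotypes (-2.52 in xrn1).

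Of 21 iron and copper genes tested, 7 were higher in xrn1 SK1 and none was lower (14 and 0 with equal medians). Wild type gave 2 higher and 1 lower. Of all mRNAs 3.55% were higher and 9.42% lower in xrn1 SK1 (6.28% and 4.2% with equal medians). FIT2, a cell-wall mannoprotein that retains siderophores (chr15:1059531-1059992, plus strand), stood at 3.74 and 4.04 against 0.155 and 0.139 in xrn1 and at 0.219 and 0.0991 against 0.101 and 0.110 in wild type. Its change with Xrn1 loss was 4.21. FRE4 and FRE5, metalloreductases or putative ones, changed by 3.08 and 3.12, and SIT1, a siderophore transporter, by 2.46. CTR3, a copper transporter, went the other way: it was higher in SK1 by 3.06 in xrn1 and by 5.02 in wild type.

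Of 24 genes for allantoin use, permeases and other nitrogen sources, 13 were lower in xrn1 SK1 and none higher (12 and 0 with equal medians). The ASP3 copies made up 4 of the 13. Lower calls were 9.42% of all mRNAs, or 4.2% with equal medians. GAP1, the general amino acid permease, stood at 0.216 and 0.226 against 11.9 and 13.4, a difference of -5.80 (SE 0.148, limma adjusted p = 1.8e-20). DAL3, of allantoin degradation, differed by -4.25 and PUT4, the proline permease, by -3.78. PTR2, a peptide transporter outside the list, stood at 0.954 and 0.971 against 13.2 and 15.2 in xrn1. In wild type it was at 0.0201 and 0.0137 against 3.65 and 4.002, so its change with Xrn1 loss was 3.54.

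Of 13 hexose transporters tested, 3 were higher and 5 lower in xrn1 SK1, or 3 and 3 with equal medians. For all mRNAs the shares were 3.55% and 9.42%, or 6.28% and 4.2%. HXT1, the low-affinity transporter induced by high glucose, stood at 0.813 and 0.862 against 7.95 and 8.54, a difference of -3.29. HXT2, a high-affinity transporter, stood at 14.7 and 14.9 against 4.53 and 3.85, and HXT8 differed by 2.03. HXT6 and HXT7, near-identical high-affinity transporters whose reads cannot be separated, differed by -2.03 and -2.42 in xrn1 and by 0.03 and -0.43 in wild type. THI7, the thiamine transporter, was higher in SK1, at 7.17 and 7.63 against 0.785 and 0.932.

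Of 25 heat-shock genes, 1 was higher and 7 lower in xrn1 SK1 (1 and 5 with equal medians). The shares of all mRNAs were 3.55% and 9.42% (6.28% and 4.2% with equal medians). HSP26, a small chaperone, stood at 0.171 and 0.183 against 0.924 and 1.16 in xrn1 and at 0.109 and 0.104 against 0.0767 and 0.0639 in wild type, a change of -3.08. HSP12, a membrane-stabilising stress protein, stood at 28.6 and 30.1 against 7.06 and 7.97, and its difference was 2.32 smaller than in wild type. SIS1, an Hsp40 cochaperone, differed by -1.73. Of 20 general stress genes 4 were higher and 2 lower (9 and 1 with equal medians), among them DDR48 (1.67) and GSY1, a glycogen synthase (-2.20). ROX1, the repressor of hypoxic genes, was higher by 1.74.

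Of 31 meiosis and sporulation genes tested, 2 were higher and 11 lower in xrn1 SK1, or 3 and 5 with equal medians, at mostly low levels. All mRNAs gave 3.55% higher and 9.42% lower, or 6.28% and 4.2% with equal medians. SPS4, a late sporulation gene, stood at 0.0571 and 0.0534 against 0.416 and 0.454. ZIP2, of the synaptonemal complex, differed by -2.03, and DIT1 and DIT2, of spore wall synthesis, by -1.86 and -1.90. SPO24 went the other way, at 51.9 and 52.2 against 17.6 and 19.8, with a difference of 1.48 (limma adjusted p = 0.0052). In wild type SPO24 was at 1.24 or below in all 4 libraries.

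Of the other gene sets, some had medians close to the -0.40 of all features and some did not. Their counts stand beside 3.55% higher and 9.42% lower of all mRNAs, or 6.28% and 4.2% with equal medians. The median was -0.83 for histones, -0.64 for NMD factors, -0.12 for glycolysis and 0.19 for heme and oxygen-regulated genes. Among 138 ribosomal protein genes, 2 were lower and none higher (median -0.48), and none was called with equal medians; RPL39 was one of the 2, at -1.13. No call was made among 35 ribosome biogenesis genes (limma adjusted p under 0.05 and 2-fold), whose median was -0.39. Of 18 glycolysis genes 1 was higher and 1 lower, the latter being ENO2, an enolase, at -1.42, which was not called with equal medians. Of 10 histone genes, 2 were lower on the deposited scale, HHF1 at -1.22 and HTA1 at -1.17, and none with equal medians. Among decay genes, none of 6 NMD factors was called, 1 of 17 reported NMD targets was lower and 3 of 33 decapping and deadenylation factors were lower, none of these 3 with equal medians. The 3 were LSM4 (-1.41) and LSM7 (-1.11), of the ring that binds deadenylated RNA ends, and DCP1, the decapping activator (-1.37). Of 21 genes of the exosome and Nrd1 complexes, 1 was lower on the deposited scale and none with equal medians. Of 14 heme and oxygen-regulated genes 3 were higher and 1 lower (4 and 1 with equal medians). Of 43 amino acid synthesis genes 2 were higher and 3 lower (4 and 0 with equal medians), and of 21 thiamine and vitamin B6 genes 2 and 2 (5 and 0 with equal medians). Of 7 galactose genes 3 were lower, or 1 with equal medians, and of 8 auxotrophic marker genes 1 was higher, MET17. IMD2, an inosine monophosphate dehydrogenase, was lower by -1.46 and not called with equal medians.

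The lncRNAs furthest apart were found on several chromosomes. XUT0508 (chr10:24457-24929, plus strand) and XUT0509 (chr10:25449-26031, plus strand), both opposite IMA5, an isomaltase gene, had 1367 and 1552, and 1698 and 1875 reads in xrn1 SK1. In xrn1 W303 XUT0508 had 0 and 1 reads and XUT0509 had 2 and 1. XUT0400 (chr7:990916-992166, plus strand) stood at 0.756 and 0.761 against 0.00361 and 0.00560, while RIE1 on the other strand was lower in SK1 by -1.58. XUT1806 (chr16:860655-860961, minus strand) had 454 and 511 reads against 2 and 0. XUT0493 (chr9:300566-301415, plus strand) had 946 and 1077 against 1 and 1, and XUT1184 (chr6:269784-270054, minus strand) 170 and 213 against none, at least 21.3-fold higher.

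On the low side in SK1, XUT0083 (chr3:29466-30515, plus strand) and XUT0084 (chr3:30875-31296, plus strand) lie next to each other on chromosome 3. XUT0083 stood at 0.00578 and 0.00776 against 4.14 and 4.50, and XUT0084 had 2 and 2 reads against 1802 and 1786. XUT0109 (chr3:169019-169394, plus strand) stood at 0.00628 and 0.00482 against 2.50 and 2.47. XUT1010 (chr3:84572-84829, minus strand) had no read in xrn1 SK1 and 358 and 304 in xrn1 W303, at least 327-fold lower. SUT430 (chr16:928711-931119, plus strand) had none against 2514 and 2245, at least 2356-fold lower, and SUT500 (chr5:8413-9765, minus strand) 0 and 1 against 1351 and 1292. SUT430 lies near SGE1 (chr16:934034-935665), and ARR1 lies beyond SGE1 (chr16:938148-939032).

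The change with Xrn1 loss was large for other lncRNAs. XUT1436 (chr11:299754-300986, minus strand) stood at 0.169 and 0.157 against 0.00587 and 0.00649 in xrn1, and had 11 reads or fewer in each wild-type library, a change of 3.68. XUT1004 (chr3:9333-9934, minus strand) had 343 and 366 reads in xrn1 SK1 and none in xrn1 W303, at least 39.6-fold higher. SUT501 (chr5:10501-11341, minus strand) and XUT1122 (chr5:10314-11314, minus strand) overlap on the same strand and share reads. SUT501 stood at 0.00241 and 0.00144 against 0.593 and 0.624 in xrn1 and at 0.0211 and 0.0194 in wild-type W303, a change of -4.83, and XUT1122 changed by -4.77.

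Opposite-strand pairs were then read together. Of 1843 pairs of an mRNA and a lncRNA that overlap on opposite strands by at least 200 nt, 152 had both members called in xrn1. The members went opposite ways in 107 pairs, with the lncRNA higher and the mRNA lower in 52 and the reverse in 55, and the same way in 45. With equal medians, 97 of 142 pairs went opposite ways. The pairs hold 1774 lncRNAs and 1293 mRNAs, so pairs share members. On the deposited scale the 107 opposite pairs hold 74 mRNAs and the 45 others 34, since overlapping lncRNAs can face the same mRNA. Of all lncRNAs tested, 10.5% were higher and 27.7% lower, and of all mRNAs 3.55% and 9.42%. How many pairs these rates alone would give was not computed. Over all 1843 pairs the differences had a Pearson r of -0.13 (-0.18 with equal medians), a weak relation given as a description.

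PHO84 stood in such a pair. CUT281 (chr13:23944-26104, plus strand) and the overlapping XUT0683 (chr13:23980-26546, plus strand) cover the whole of PHO84 on the other strand, and an antisense RNA there is known in S288C-related strains to act against PHO84. CUT281 stood at 1.21 and 1.20 in xrn1 SK1 and at 0.0251 and 0.0259 in xrn1 W303, a difference of 5.28 (SE 0.157, limma adjusted p = 3.7e-19). XUT0683 differed by 4.77. In wild type CUT281 stood at 0.106 and 0.0948 against 0.00423 and 0.00532. In SK1 the antisense density was above that of the mRNA and in W303 it was below it, in both genotypes.

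PRM7 and BSC1, neighbours on chromosome 4 (chr4:381985-384081 and chr4:384601-385587, minus strand) that are one open reading frame in some strains, gave the reverse case. PRM7 stood at 3.86 and 3.87 in xrn1 SK1 against 0.141 and 0.134, and BSC1 at 5.67 and 5.77 against 0.149 and 0.125. On the other strand XUT0155 (chr4:382985-383284, plus strand) stood at 0.00675 and 0.00704 against 0.467 and 0.590. SUT048 (chr4:381596-386507, plus strand), which spans both genes, stood at 0.0103 and 0.0106 against 0.120 and 0.132. In wild-type W303 PRM7 was at 0.283 and 0.238 and XUT0155 at 0.00801 and 0.00320. The strain difference changed with Xrn1 loss by 2.59 for PRM7, by 3.72 for BSC1 and by -4.71 for XUT0155.

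**Figure D5:**
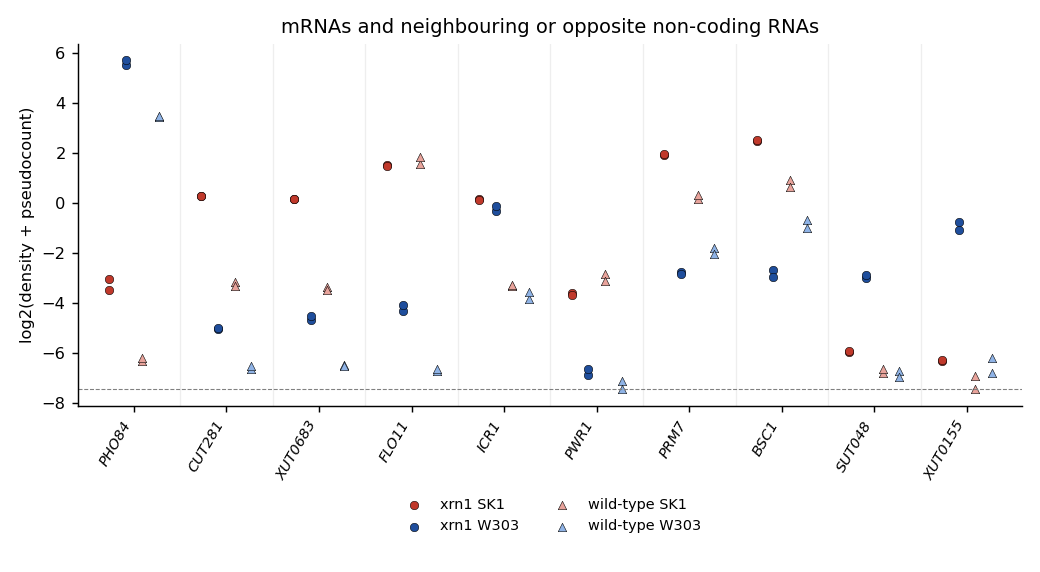
Level of 3 sets of mRNAs and non-coding RNAs in each library, as log2(density + pseudocount), with 2 points per group (circles for xrn1, triangles for wild type, red for SK1, blue for W303). PHO84 is low where CUT281 and XUT0683 are high, FLO11 and PWR1 are both high in SK1, and among xrn1 libraries PRM7 and BSC1 are high where SUT048 and XUT0155 are low.

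Mitochondrial transcripts differed at few genes. Of 19 genes of the mitochondrial genome, 1 was higher and 2 lower in xrn1 SK1, or 3 and 2 with equal medians. Among all mRNAs the shares were 3.55% and 9.42%, or 6.28% and 4.2%. AI5_BETA, an intron-encoded frame, stood at 0.135 and 0.0969 against 0.581 and 0.574, and VAR1, a mitochondrial ribosomal protein, differed by -1.96 at low levels. RPM1, the RNA of mitochondrial RNase P, stood at 0.0286 and 0.0131 against 0.672 and 0.708, a difference of -4.77 (limma adjusted p = 7.9e-10). It differed by -3.96 in wild type.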

How the data were processed

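The deposited values are a signal (density): per the labels and the files' values, reads per nucleotide times 1 factor per library that equalises summed snoRNA reads. Alignment used TopHat, per the submitters' processing notes; its version was not given in the sources used here, nor was the build. Dividing density by each library's step gave whole reads for 100% of values (tolerance 0.01). limma 3.58.1 in R 4.3.3 (trend, robust) was fitted to log2(density + 0.00576637), the 5th percentile of non-zero densities, over 24 rRNA-depleted libraries in 12 groups (12 residual degrees of freedom). Features needed 10 reads in both libraries of either xrn1 strain (9356 of 9765). A feature is called at a Benjamini-Hochberg adjusted p under 0.05 and 2-fold. Tests were checked on simulated data. Motifs and sequences were read with Biopython 1.88 from R64.

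Features were named by size: the 12 mRNAs and 6 lncRNAs furthest apart each way with separated libraries and a level above their class median, up to 4 members a list by adjusted p, the 5 mRNAs and 3 lncRNAs with the largest change with Xrn1 loss each way, and 8 genes nearly without reads in one background. Others named, such as MFA1, AGA2, AGA1, MATALPHA2, PHO89, PHO90, VTC3, TRP1, LEU2, ADE17, ADE12, MET3, HXT2, ENA1, ENA5, SPO24, CUT281, XUT0683, SUT048, PWR1, ICR1 and RPM1, were chosen after their values were seen. Members and lists were chosen with earlier results of these data known. Replicate numbers are not shown to pair libraries.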

Additional observations from a re-analysis of the deposited data

Results flagged for a closer look

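Of 147 named features tested, 90 had a strain difference in xrn1 cells that differed from that in wild type, by limma's test of the difference itself (adjusted p under 0.05 and at least 2-fold). Of all 9356 features tested, 2.62% had a positive and 19.7% a negative change. Many of the 147 were named for a large difference or a large change. The count of 90 therefore follows in part from that choice. Values are the xrn1 difference minus the wild-type difference (log2), 34 positive and 56 negative. The scale moves them: the median of all features was -0.46, and 24 were not called with equal medians of mRNAs. Features with no or few reads in a strain have a value set in part by the pseudocount. Where a strain had almost no reads in both genotypes, the change only restates the rise of the other strain with Xrn1 loss. MAL11, without reads in haploid SK1, stood in W303 at 0.0343 and 0.0331 in wild type and at 0.913 and 1.06 in xrn1.

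The change was positive, on both scales, for RCK1 (3.66), YFL051C (2.21), BSC1 (3.72), PRM7 (2.59), XUT0508 (3.52), XUT0509 (3.09), XUT1806 (3.21), XUT0493 (2.83), FIT2 (4.21), PTR2 (3.54), MET2 (3.41), XUT1436 (3.68), XUT1004 (3.52), YFR057W (2.68), LSO1 (4.06), STE2 (1.71), STE6 (1.30), FUS1 (1.66), PHO12 (1.34), MET17 (2.08), MLS1 (1.08), SUL1 (2.46), SUL2 (4.08), MET3 (2.28), FRE4 (3.08), FRE5 (3.12), SIT1 (2.46), ROX1 (1.16), CUT281 (1.95) and XUT0683 (1.69). Sulfur, iron and siderophore genes and lncRNAs are among them.

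It was negative, on both scales, for ADH2 (-1.41), YMR321C (-1.01), FLO11 (-2.66), YOL159C-A (-3.44), YEL073C (-5.93), PHM6 (-2.94), XUT0083 (-3.52), SUT430 (-3.13), SUT500 (-3.87), RMD6 (-4.40), SAG1 (-3.92), CSS3 (-3.35), SUT501 (-4.83), XUT1122 (-4.77), XUT0155 (-4.71), BDS1 (-3.66), MAL11 (-4.65), MF(ALPHA)2 (-1.49), MATALPHA2 (-1.98), FLO10 (-2.03), ADE2 (-4.17), HIS3 (-2.62), TRP1 (-2.45), ADE17 (-3.93), MRPS17 (-1.66), CTR3 (-1.96), PUT4 (-1.65), HXT6 (-2.06), HXT7 (-1.99), HSP26 (-3.08), HSP12 (-2.32), GSY1 (-1.97), DIT1 (-1.91), LSM4 (-1.47), PWR1 (-1.17) and SUT048 (-3.12). These hold W303 allele genes, adenine genes, lncRNAs and genes near chromosome ends. Some of the last, such as MAL11 and BDS1, had almost no reads in haploid SK1 in either genotype, which fixes the sign of their change.

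It was positive and not called with equal medians for AIF1 (1.63), XUT0400 (1.83), XUT1184 (1.93) and YBR013C (1.35).

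It was negative and not called with equal medians for ASP3-4 (-1.83), ARR1 (-2.74), HMRA1 (-1.34), SGE1 (-1.80), XUT0084 (-2.24), XUT1010 (-2.36), ASP3-2 (-1.91), PHO89 (-1.35), ASP3-1 (-1.81), ASP3-3 (-1.87), ARR2 (-3.03), ARR3 (-2.68), ADE12 (-1.35), MRPL27 (-1.33), ZIP2 (-1.67), DIT2 (-1.36), DCP1 (-1.39), LSM7 (-1.23), RPL39 (-1.14) and HHF1 (-1.005).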

How the results depend on the processing

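With equal medians of mRNAs the xrn1 counts were 913 higher and 813 lower for all features, 357 and 239 for mRNAs and 552 lower for lncRNAs, and the change with Xrn1 loss gave 377 and 746. With the pseudocount at the 25th percentile, wild type gave 411 and 299, and 1121 features had a negative change. Leaving out 1 library at a time gave 580 to 636 higher and 1428 to 1647 lower in xrn1, 187 to 218 and 487 to 612 for mRNAs, 349 to 376 and 901 to 997 for lncRNAs, 941 to 1216 and 531 to 672 in wild type, and 233 to 281 and 1674 to 2159 for the change. With equal medians the change turned to -0.0724 for AIF1, 0.24 for ASP3-4 and ASP3-3, 0.81 for HMRA1, 0.29 for SGE1, 0.16 for ASP3-2, 0.26 for ASP3-1 and -0.33 for YBR013C, and the xrn1 difference to 0.43 for TRP1 and 0.27 for MET3. Leaving out 1 library, the xrn1 difference of TRP1 ranged from -0.0366 to 0.0173. The change was 0.94 for XUT0083 with limma voom on reads and 0.56 for MF(ALPHA)2 with a smaller pseudocount. The cause was not tested. The fit with replicate number as a block gave 596 and 1514 in xrn1, 1045 and 575 in wild type and 245 and 1843 for the change, and changed no call of a named feature; deviations of same-numbered libraries correlated at 0.0211 in xrn1 and -0.0387 in wild type. Of the planned tests on recovered reads, limma voom was run and the negative binomial tests and their normalization were not run. With 2 libraries a group and fewer reads in W303, levels near the pseudocount are imprecise, and fitted differences of features without reads depend on it.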
